A study of Drosophila melanogaster with 12 samples.

Results

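The subunits of the oxidative phosphorylation system were examined in neural progenitors of the Drosophila melanogaster embryo. Genes were taken as members when their symbol in the array's annotation began with ND-, COX and a digit, ATPsyn, UQCR-, Sdh and a letter from A to D, RFeSP or Cyt-c. This gave 72 of the 11979 named genes on the array: 31 of complex I, 6 of complex II, 8 of complex III, 14 of complex IV and 13 of complex V. Of these, 52 were core subunits and 20 were paralogs whose symbols end in L, such as COX4L. Neither cytochrome c itself nor an assembly factor was matched, and the symbols did not cover the subunits encoded in the mitochondrial genome.

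The cells were neuroblasts and ganglion mother cells, their daughters, from the ventral nerve cord of stage 11 embryos. The 6 prospero mutant samples were homozygous for the pros17 allele. The 6 samples called wildtype carried pros17 over the balancer chromosome TM3-KrGFP and so were heterozygous for the same allele. RNA from a small pool of cells was amplified by PCR and hybridised on a spotted array against a common reference, made the same way from whole w1118 embryos of stages 10 to 12. Cy3 marked the cells on replicates 1 to 3 and Cy5 marked them on replicates 4 to 6, in both groups. Whether replicate samples stem from separate embryos is not stated, so the p-values reflect sample-to-sample spread that may in part be technical.

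Oxidative phosphorylation is the pathway by which mitochondria make ATP. Complexes I and II pass electrons from NADH and succinate to ubiquinone, complex III passes them on to cytochrome c, and complex IV hands them to oxygen. Complexes I, III and IV pump protons across the inner membrane as they do so, and complex V, the ATP synthase, uses the returning protons to make ATP. Prospero is a homeodomain transcription factor that passes into the ganglion mother cell at division, where it restrains self-renewal and promotes differentiation. Loss of prospero in larval brain is known for lineages that keep dividing, and work on larval Drosophila neuroblasts has tied oxidative phosphorylation to their division and to tumour growth.

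Each array gave between 8421 and 10030 usable log2 ratios, taken to be cells over reference. The labels do not state this direction, which is only likely. The number of arrays limits the precision, and the signal above background behind each ratio is unknown. The pros transcript averaged -2.99 ± 0.69 in the mutant and 2.17 ± 0.99 in wildtype (SD, n = 6 each), and the groups did not overlap. Of 6 neuroblast markers, 4 were higher in the mutant past the threshold. The median ratio of that list lay between 1.87 and 2.65 on the mutant arrays and between -0.79 and 1.96 on the wildtype arrays. Of 6 neuron markers tested, 3 were lower, and the list's median ratio ran from -1.88 to 0.40 on mutant arrays and from -0.07 to 2.66 on wildtype arrays. Of the 5 glial markers tested 1 was lower, and of the 4 muscle and mesoderm markers tested 1 was lower. Of the 6 hemocyte and fat body markers tested 1 was higher, of the 3 gut and yolk markers tested 0 passed, and of the 4 epidermal markers tested 1 was lower and 1 higher. The glial list had array medians from -0.91 to 0.58 in the mutant and from 0.01 to 1.13 in wildtype. The muscle list had medians from -2.78 to 0.23 in the mutant and from -0.94 to -0.08 in wildtype. Marker lists of several cell types thus moved with the group, their part in the results on subunit genes was not tested, and fewer cells of a type cannot be told apart from less RNA per cell.

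The array measured core subunits and paralogs very differently. Of the 52 core subunits, 49 had a ratio on all 12 arrays and 51 could be tested, which required at least 4 ratios in each group. Across all named genes of the array 58.9% met that requirement. The exception was ND-B8, an accessory subunit of complex I, with 2 mutant and 3 wildtype ratios. Of the 20 paralogs, 5 could be tested: ND-20L, ND-B14.5AL, UQCR-14L, COX4L and COX6AL. Another 5 paralogs had no ratio on any array, among them all 3 of complex V (ATPsynCF6L, ATPsynGL and ATPsynbetaL), and the median paralog had 2.5 ratios. All 3 complex II paralogs, SdhAL, SdhBL and SdhCL, had 1 or 2 ratios in all. A missing ratio is listed as exactly 0 or has signal in 1 channel only, so it does not give a level.

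**Figure D1:**
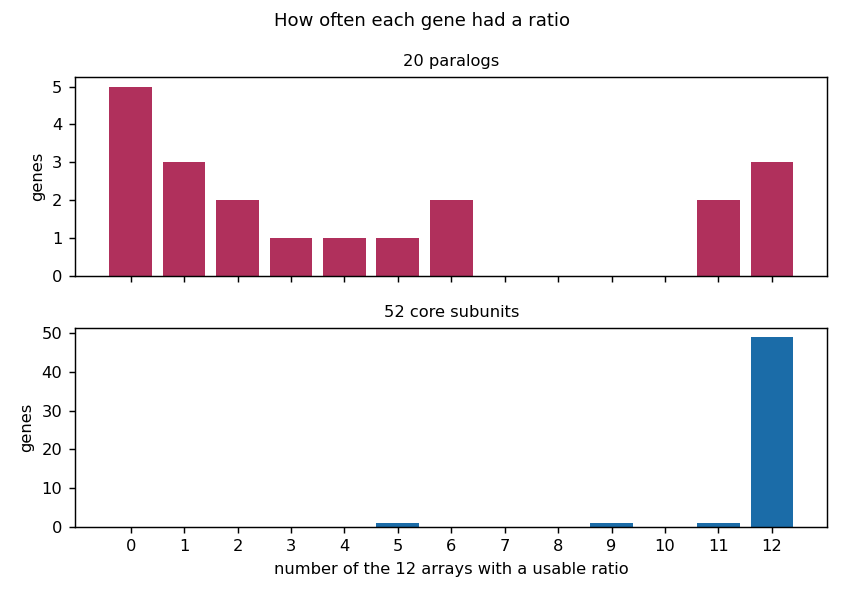
Number of genes (vertical axis) by how many of the 12 arrays gave a usable ratio (horizontal axis), for the 20 paralogs above and the 52 core subunits below. The core subunits stand almost entirely at 12 arrays (49 genes), whereas 5 paralogs stand at 0.

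Against the whole-embryo reference the tested subunits were spread around a ratio of 0 in wildtype and lay mostly below it in the mutant. Their array medians averaged -0.28 in Cy3 and 0.14 in Cy5 in wildtype, and -0.69 and -0.34 in the mutant. A ratio of 0 was not the middle of the rows, since the median of all rows averaged 0.26 on wildtype and 0.05 on mutant arrays. Every mutant ratio was below 0 for 26 of the 56 tested members (46.4%, against 33% of all rows tested) and above 0 for 8 (14.3%, against 32.1% of rows). Every wildtype ratio was below 0 for 10 members (17.9%, against 22.5% of rows) and above 0 for 7 (12.5%, against 29.3% of rows). The 8 genes above the reference on every mutant array were the core subunits ND-18, ND-75, ND-B12, ND-B17 and COX5A and the paralogs ND-20L, ND-B14.5AL and COX4L. The 10 genes below the reference on every wildtype array were ND-ACP, ND-ASHI, ND-B14.5B, ND-MLRQ, SdhB, SdhD, Cyt-c1, UQCR-6.4, ATPsynC and ATPsynE. The ratio of a gene compares cells with whole embryos and says nothing of one subunit's abundance against another's.

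Transcripts of 4 subunits were lower in the prospero mutant, 1 each from complexes I, III, IV and V: ND-39, Cyt-c1, COX7C and ATPsynE. Their decreases were between 1.80-fold and 2.03-fold, and 0 members were higher past the threshold, a limma adjusted p of 0.05 over all 8165 rows tested. The 4 calls are 7.14% of the 56 tested members, beside 3.37% of all rows called lower and 1.58% called higher. At an unadjusted p under 0.05 there were 30 members (53.6%), beside 25.9% of all rows. The fitted difference was below 0 for 51 of 56 members (91.1%), beside 59.3% of rows. The members' median difference was -0.48 on the log2 scale, with a range from -2.94 to 1.04, while the median over all rows was -0.13. The members' median minus that of all rows was -0.35. The deposited columns each had a median of 0, and the array medians of the rows left after exact zeros and one-channel values were set to missing averaged 0.05 ± 0.14 in the mutant and 0.26 ± 0.19 in wildtype (SD, n = 6 each). With each array centred on its own median, 43 of 56 members were below 0 (76.8%, against 44.8% of rows), and the members' median was -0.28 beside 0.08 for all rows. That centring also changed the calls over all rows, which were 221 lower (2.71%) and 423 higher (5.18%), against 275 lower and 129 higher as deposited. Among members it left 2 lower, COX7C and ATPsynE. Without the dye term all 4 calls were lost, with limma adjusted p from 0.0546 for Cyt-c1 to 0.16 for COX7C, while 21 members had an unadjusted p under 0.05. The count also rested on single arrays. It was 0 without wildtype replicate 5 or 6 or mutant replicate 4 or 6, and 1 without wildtype replicate 2 or mutant replicate 1. It was 2 without mutant replicate 2 or 3, and 6 without wildtype replicate 1. The calls over all rows moved too, from 404 of 8165 in the fit reported. They were 144 of 7637, 152 of 7692, 117 of 7931 and 161 of 7963 in the fits with 0 members. With 1 member they were 421 of 7847 and 267 of 7996, and with 6 members 549 of 7937.

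**Figure D2:**
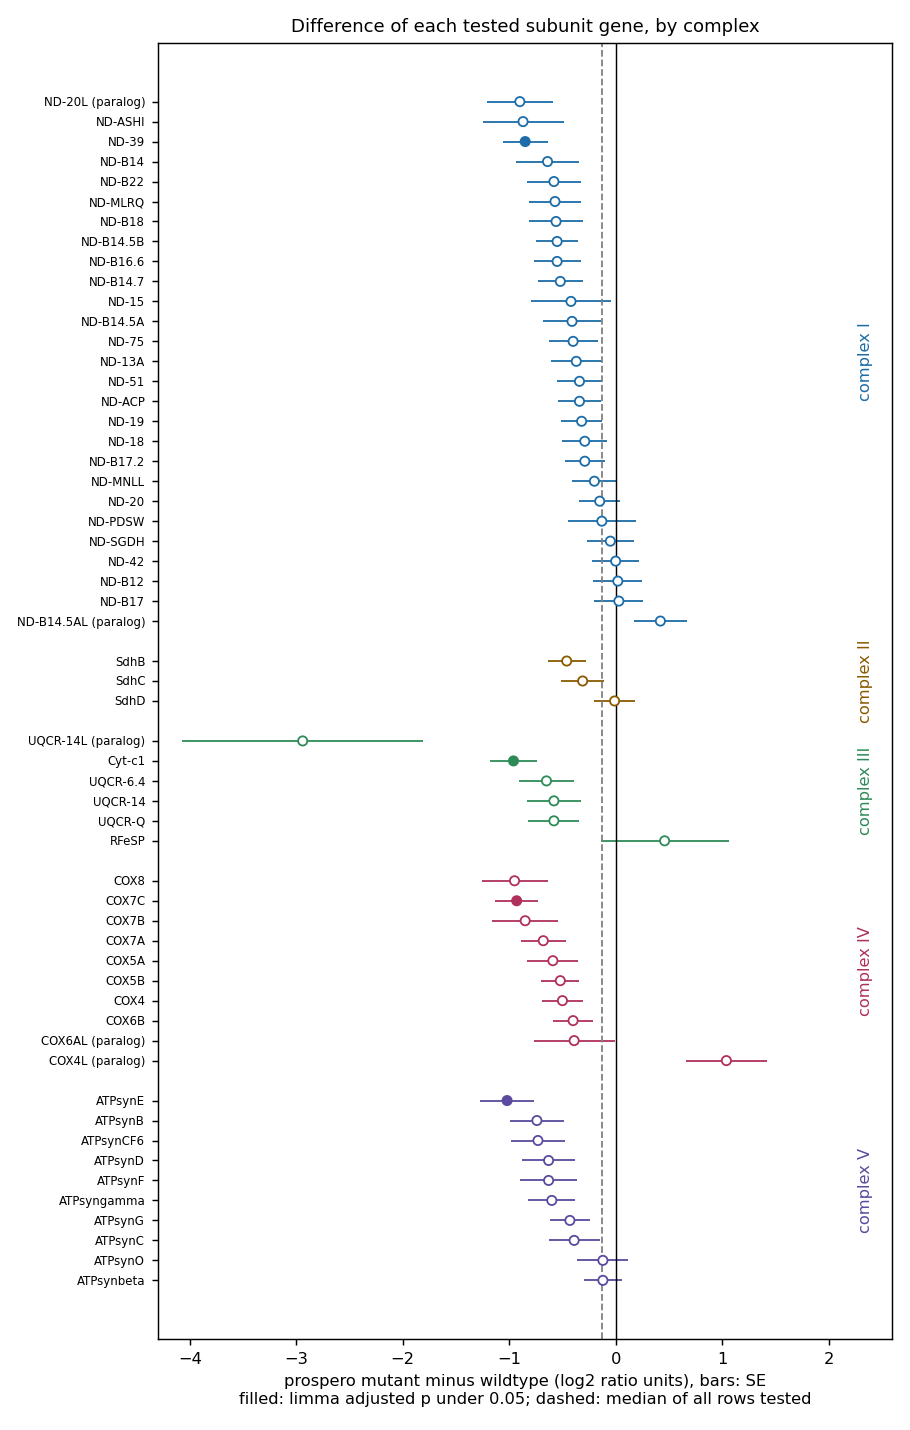
Fitted difference of each of the 56 tested members, prospero mutant minus wildtype in log2 ratio units (horizontal axis), sorted within complexes I to V. Points are estimates, bars are SE, filled points passed the adjusted threshold, and the dashed line is the median of all rows tested at -0.13. Nearly all points lie left of 0, the filled ones being ND-39, Cyt-c1, COX7C and ATPsynE, and the exceptions right of 0 are ND-B12, ND-B17, ND-B14.5AL, RFeSP and COX4L.

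By the median of fitted differences, the core subunits of complexes III, IV and V lay further below 0 than those of complexes I and II. This description was not tested between complexes. For complex V it did not hold in Cy3 arrays or by array medians. For complex III it did not hold when each group was summarised by the median of its array medians. The median difference was -0.37 over 25 core subunits of complex I, -0.31 over 3 of complex II, -0.58 over 5 of complex III, -0.63 over 8 of complex IV and -0.62 over 10 of complex V. All 8 tested core subunits of complex IV and all 10 of complex V had a difference below 0, as did 23 of 25 in complex I, 3 of 3 in complex II and 4 of 5 in complex III. An unadjusted p under 0.05 was reached by 8 of 25 core subunits in complex I, 1 of 3 in complex II, 4 of 5 in complex III, 7 of 8 in complex IV and 7 of 10 in complex V, beside 25.9% of all rows. The shares of complex I (32%) and complex II (33.3%) lay near that background. The order was similar after centring each array, with medians of -0.17 for complex I, -0.11 for complex II, -0.38 for complex III, -0.43 for complex IV and -0.41 for complex V. Within Cy3 arrays the medians were -0.26 for complex I, -0.50 for complex IV and -0.25 for complex V, so complex V lay with complex I there. Within Cy5 arrays they were -0.46 for complex I, -0.63 for complex IV and -0.76 for complex V.

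Array by array, the core subunits of complex IV had a median ratio of -0.65 ± 0.39 in the mutant and -0.02 ± 0.45 in wildtype (SD, n = 6 each). For complex V it was -0.49 ± 0.23 in the mutant and -0.05 ± 0.38 in wildtype. For complex I it was -0.52 ± 0.34 in the mutant and -0.10 ± 0.33 in wildtype, close to complex V in both groups. In each of these complexes the ranges of the groups overlapped. Complex II had -0.46 ± 0.31 in the mutant and -0.29 ± 0.20 in wildtype, and complex III had -1.12 ± 0.90 in the mutant and -0.64 ± 0.51 in wildtype. Complex III had the widest spread, from -2.71 on mutant replicate 4 to 0.03 on mutant replicate 6. The median of its 6 array medians was -0.96 in the mutant and -0.86 in wildtype, against -0.64 and 0.0 for complex I.

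**Figure D3:**
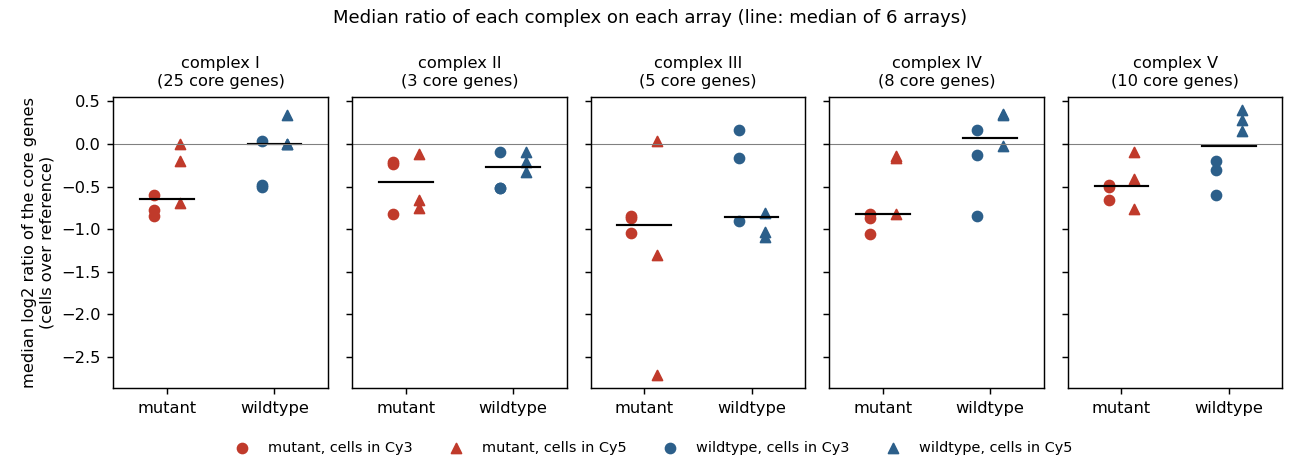
Median log2 ratio (cells over reference, vertical axis) of the core subunits of each complex on each array, mutant to the left and wildtype to the right in each panel. Circles are arrays with cells in Cy3, triangles arrays with cells in Cy5, and lines the median of 6 arrays. The groups overlap in every panel, and for complex IV the line is at -0.82 in the mutant and 0.07 in wildtype.

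The mutant arrays were not alike in the level of these genes. The median of all core subunits was -0.83, -0.60, -0.77, -0.81, -0.12 and -0.19 on mutant replicates 1 to 6, against -0.41, 0.04, -0.51, 0.33, 0.00 and 0.11 on wildtype replicates 1 to 6. Mutant replicates 5 and 6, with cells in Cy5, were the highest of their group. Wildtype replicates 1 and 3, with cells in Cy3, were the lowest of theirs, below those mutant arrays. Within each dye orientation every mutant median lay below every wildtype median. Mutant replicates 5 and 6 also had the fewest probes with a value beyond 11 in size, 1 and 18, against between 101 and 1542 on each of the other 10 arrays. Relative to the median of all rows on the same array, the core subunits stood at -0.60 ± 0.38 in the mutant and -0.33 ± 0.44 in wildtype (SD, n = 6 each). Those values ran from -0.97 to -0.11 in the mutant and from -0.82 to 0.27 in wildtype and overlapped broadly. They overlapped within each dye orientation as well. Without mutant replicate 5 the members' median difference was -0.52, and without mutant replicate 6 it was -0.50.

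Complex I, the NADH dehydrogenase, had the most members and mostly small differences, from -0.87 to 0.03 among its tested core subunits. ND-39 (gene ID 40272, chromosome arm 3L), an accessory subunit related to mammalian NDUFA9, was lower in the mutant. Its log2 ratios were -1.80, -1.60, -1.33, -1.39, -1.08 and -0.74 on mutant replicates 1 to 6, against -1.21, -0.45, -1.17, -0.13, 0.00 and 0.11 on wildtype replicates 1 to 6. Wildtype replicates 1 and 3 lay among the mutant arrays, so the groups overlapped, and the other wildtype arrays lay above every mutant array. Within each dye orientation every mutant array lay below every wildtype array, a trait whose share over all rows was not counted. ND-39 fell by 0.85 on the log2 scale, or 1.80-fold (SE 0.21, limma adjusted p = 0.0408), with -0.63 in Cy3 and -1.06 in Cy5. The call was lost with each array centred (difference -0.64, adjusted p = 0.0676) and remained in 3 of the 12 fits that each left out 1 array.

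Other complex I genes had values on both sides of the reference. ND-MLRQ, an accessory subunit whose mammalian relative NDUFA4 is now placed with complex IV, had the lowest mean ratio of the complex. It ran from -2.80 to -1.82 (median -2.30) in the mutant and from -2.33 to -1.26 (median -1.61) in wildtype, a difference of -0.57 (SE 0.24, limma adjusted p = 0.166). Both groups lay below the reference on every array and overlapped. ND-B12, a small membrane-arm accessory subunit, stood at the other end, at 1.66 ± 0.43 in the mutant and 1.64 ± 0.54 in wildtype (SD, n = 6 each). Its difference of 0.02 was far inside the spread of the arrays (SE 0.23). ND-75, which carries iron-sulfur clusters of the electron path, had a difference of -0.40 (SE 0.23), and ND-51, the flavin-binding subunit, had -0.34 (SE 0.21). ND-20L, the paralog of the iron-sulfur subunit ND-20, ran from 0.38 to 1.15 (median 0.59) in the mutant and from 0.64 to 2.28 (median 1.56) in wildtype. Its difference of -0.90 did not pass (SE 0.31, limma adjusted p = 0.101), while ND-20 itself differed by -0.15 (SE 0.19). The other tested paralog of this complex, ND-B14.5AL, had a difference of 0.42 (SE 0.25).

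Complex II, succinate dehydrogenase, is also an enzyme of the TCA cycle, and 3 of its subunits were measured. SdhB, the iron-sulfur subunit, had ratios from -1.14 to -0.55 (median -0.80) in the mutant and from -0.56 to -0.09 (median -0.37) in wildtype. The groups touched at mutant replicate 1 (-0.55) and wildtype replicate 5 (-0.56), and the difference of -0.46 did not pass (SE 0.18, limma adjusted p = 0.128). SdhC and SdhD, the membrane anchors, had differences of -0.31 (SE 0.20) and -0.01 (SE 0.19). SdhC ran from -0.82 to -0.10 (median -0.42) in the mutant and from -0.40 to 0.12 (median -0.11) in wildtype, and SdhD overlapped as widely. The flavoprotein subunit SdhA is not analysed here, and of TCA cycle and pyruvate dehydrogenase genes 0 of 9 tested passed in either direction, with a median difference of -0.24.

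Complex III held the one subunit gene whose groups did not overlap. Cyt-c1 (gene ID 38612, arm 3L) encodes cytochrome c1, the haem protein that hands electrons to cytochrome c. Its log2 ratios were -2.23, -2.81, -2.65, -2.77, -2.36 and -2.07 on mutant replicates 1 to 6, against -1.54, -1.52, -1.95, -1.87, -0.83 and -1.41 on wildtype replicates 1 to 6. Every array of both groups lay below the reference, and the highest mutant array lay below the lowest wildtype array. Groups that did not overlap, with the mutant lower, were found for 1 of the 56 tested members and for 206 of all 8165 rows (2.52%). The members' share was thus not above that of all rows. Cyt-c1 fell by 0.96, or 1.95-fold (SE 0.22, limma adjusted p = 0.0349), by nearly the same amount in Cy3 (-0.90) and in Cy5 (-1.03). With each array centred the difference was -0.76 (adjusted p = 0.0641), and the call remained in 4 of the 12 fits that each left out 1 array.

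UQCR-Q, a small ubiquinone-binding subunit, ran from -1.08 to 0.10 (median -0.40) in the mutant and from -0.28 to 0.66 (median 0.15) in wildtype. The groups overlapped over both dye orientations, though not within either, and its difference of -0.58 did not pass (SE 0.24, limma adjusted p = 0.151). UQCR-14 and UQCR-6.4, small subunits of the complex, had differences of -0.58 (SE 0.25) and -0.65 (SE 0.26), neither past the threshold. The paralog UQCR-14L had the lowest mean ratio of any tested member and the largest difference in size, with a wide spread. It ran from -7.82 to -2.69 (median -4.64) over 6 mutant arrays and from -3.85 to 1.52 (median -2.12) over 5 wildtype arrays. The groups overlapped, and the fitted difference of -2.94 had an SE of 1.13 (limma adjusted p = 0.136).

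RFeSP, which encodes the Rieske iron-sulfur protein that takes electrons from ubiquinol, gave a ratio that followed the dye rather than the group. With the cells in Cy3 its ratios were 1.89, 1.41 and 1.32 in the mutant and 1.25, 1.03 and 1.76 in wildtype. The Cy5 arrays gave -3.47, -3.22 and 0.72 in the mutant and -2.84, -3.04 and -2.29 in wildtype. The Cy5 mean minus the Cy3 mean was -3.53 in the mutant and -4.07 in wildtype, and 0.098% of all rows had a mean dye difference at least as large. Mutant replicate 6 was the one Cy5 array above 0. The group difference of 0.46 was smaller than its SE of 0.60, and the sign of its level depended on the dye. The next largest dye difference among members was -1.25 for ND-B14.5AL, a size that 13.7% of all rows reached. Over all 56 members the median of Cy5 minus Cy3 was 0.24, with 42 above 0, whereas over all rows it was -0.17, with 3263 of 8165 above 0.

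**Figure D4:**
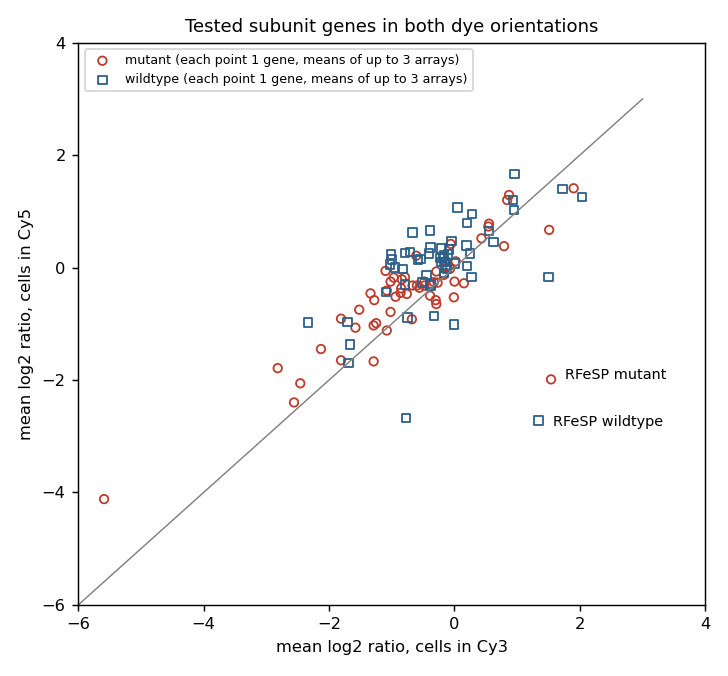
Mean log2 ratio of each tested member with cells in Cy3 (horizontal axis) and with cells in Cy5 (vertical axis), circles for the mutant and squares for wildtype. The line marks equal values, most points lie near it, and RFeSP lies far below it in both groups, with Cy5 minus Cy3 at -3.53 in the mutant and -4.07 in wildtype.

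Complex IV, cytochrome c oxidase, has its catalytic subunits encoded in the mitochondrial genome, and the genes measured here encode the nuclear subunits around them. COX7C (gene ID 50246, arm 2R), a small membrane subunit, had the smallest adjusted p of all members. Its log2 ratios were -2.31, -1.61, -1.53, -1.22, -0.64 and -0.89 on mutant replicates 1 to 6, against -0.97, -0.77, -1.25, 0.09, -0.01 and 0.33 on wildtype replicates 1 to 6. Within each dye orientation every mutant array lay below every wildtype array, whereas over both orientations the groups overlapped. The same held within each orientation for ND-39, Cyt-c1 and ATPsynE, and for SdhB, UQCR-Q and COX7A, which did not pass. The share of all rows with this trait was not counted, so it is given as description only. COX7C fell by 0.93, or 1.91-fold (SE 0.20, limma adjusted p = 0.0265), with -0.82 in Cy3 and -1.05 in Cy5. It also passed with each array centred (difference -0.73, adjusted p = 0.0348) and in 7 of the 12 fits that each left out 1 array. The value is a mean of 2 probes, which as single rows gave -1.08 (adjusted p = 0.0803) and -0.78 (adjusted p = 0.18).

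The remaining core subunits of complex IV all had differences below 0, none past the threshold. COX7A ran from -1.55 to -0.17 (median -1.05) in the mutant and from -0.99 to 0.35 (median -0.13) in wildtype, a difference of -0.68 (SE 0.21, limma adjusted p = 0.0789). COX8, with 5 mutant and 4 wildtype ratios, had a difference of -0.95 (SE 0.31, limma adjusted p = 0.0973). In both genes mutant replicates 5 and 6 were the highest mutant arrays. Replicate 5 reached the wildtype range for COX8, and replicates 4, 5 and 6 lay within it for COX7A. For COX7A that overlap was with wildtype arrays of the other dye orientation. COX5A, a matrix-side subunit, was above the reference on every array, at 0.48 ± 0.33 in the mutant and 1.06 ± 0.43 in wildtype (SD, n = 6 each), with a difference of -0.59 (SE 0.24). COX5A ran from 0.02 to 0.88 (median 0.50) in the mutant and from 0.47 to 1.56 (median 1.02) in wildtype, with overlap. COX4, which in mammals takes part in the regulation of the enzyme by ATP, had a difference of -0.50 (SE 0.19), and COX6B, on the intermembrane side, had -0.40 (SE 0.19).

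The paralog COX4L went the other way. It was named after its values were seen, as the highest difference among members. Its ratios were 0.79, 1.45, 0.36, 1.79, 1.41 and 0.68 on mutant replicates 1 to 6, against 0.16, 0.40, -0.54, 1.36, -0.72 and -0.44 on wildtype replicates 1 to 6. Every mutant array lay above the reference, and wildtype replicates 2 and 4 lay within the mutant range. The difference of 1.04 did not pass (SE 0.38, limma adjusted p = 0.115) and did so only when wildtype replicate 4 was left out, among the single arrays left out. COX4 and COX4L were thus measured with differences of opposite sign, -0.50 and 1.04. COX6AL, the other tested paralog of the complex, had a difference of -0.39 (SE 0.38).

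Complex V, the ATP synthase, has a membrane rotor and a catalytic head joined by central and peripheral stalks. ATPsynE (gene ID 41745, arm 3R), the membrane subunit e, which in yeast and mammals is involved in joining synthases into dimers, was lower in the mutant. Its log2 ratios were -2.30, -1.87, -2.23, -2.13, -1.17 and -1.05 on mutant replicates 1 to 6, against -1.20, -0.50, -1.58, -0.49, -0.56 and -0.27 on wildtype replicates 1 to 6. All arrays lay below the reference, and the groups overlapped because mutant replicates 5 and 6 stood above wildtype replicates 1 and 3. Within each dye orientation every mutant array lay below every wildtype array, a trait whose share over all rows was not counted. ATPsynE fell by 1.02, or 2.03-fold (SE 0.25, limma adjusted p = 0.0385), with -1.04 in Cy3 and -1.01 in Cy5. With each array centred the difference was -0.82 (adjusted p = 0.0466), and the call remained in 4 of the 12 fits that each left out 1 array.

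Of the peripheral stalk genes, none passed the threshold. ATPsynB, subunit b, ran from -0.54 to 0.22 (median -0.17) in the mutant and from -0.61 to 1.23 (median 0.72) in wildtype, a difference of -0.74 (SE 0.25, limma adjusted p = 0.0973). Wildtype replicate 1 was lower than every mutant array, and without it the gene passed with a difference of -0.93 (limma adjusted p = 0.0289). ATPsynCF6, coupling factor 6, had -0.73 (SE 0.25) and passed only without that same array, while ATPsynD, subunit d, had -0.63 (SE 0.25). ATPsynD ran from -0.53 to 0.43 (median -0.05) in the mutant and from 0.01 to 1.31 (median 0.61) in wildtype, so its groups overlapped and every wildtype array was above the reference. ATPsynO, the subunit that ties the stalk to the head, had -0.12 (SE 0.24) as the mean of 2 probes. As single rows its probes gave -0.22 and -0.34 (limma adjusted p = 0.664 and 0.367), and 1 of them lacked 2 wildtype ratios, so the averaged value depends on which probe was measured. In the head, the catalytic subunit ATPsynbeta had -0.05 ± 0.13 in the mutant and 0.07 ± 0.33 in wildtype (SD, n = 6 each), a difference of -0.12 (SE 0.18). ATPsyngamma, the central shaft, had -0.60 (SE 0.22, limma adjusted p = 0.124), and ATPsynC, the subunit of the rotor ring, had -0.39 (SE 0.24). ATPsynC lay below the reference on every array, between -2.42 and -1.25 in the mutant and between -2.10 and -0.81 in wildtype.

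**Figure D5:**
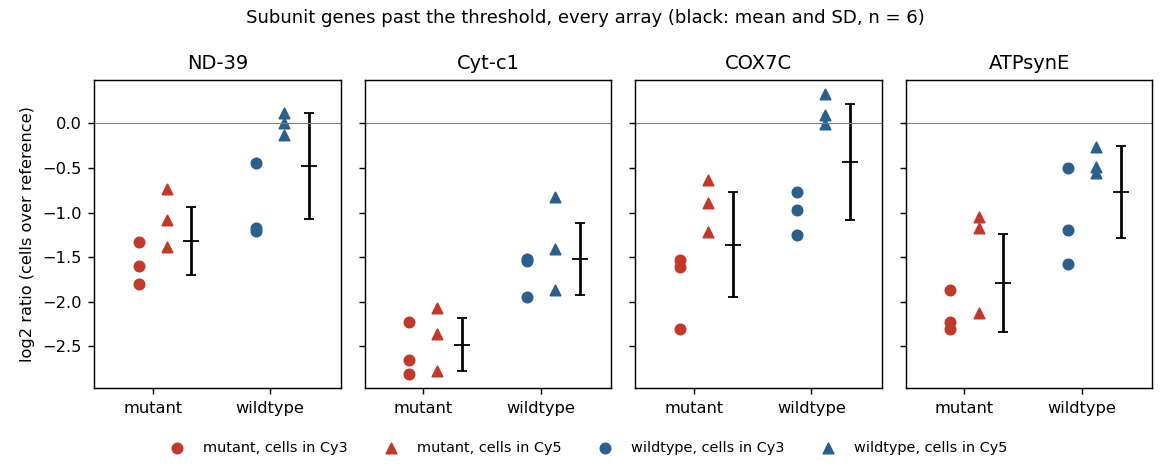
Log2 ratio (cells over reference, vertical axis) of ND-39, Cyt-c1, COX7C and ATPsynE on every array, mutant to the left and wildtype to the right in each panel. Circles are arrays with cells in Cy3, triangles arrays with cells in Cy5, and black bars the mean and SD of 6 arrays. The groups are apart for Cyt-c1 (-2.48 ± 0.30 in the mutant, -1.52 ± 0.40 in wildtype) and overlap for the other genes.

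The dye orientation did not split the members' differences past the threshold. With the cells in Cy3, 47 of 55 fitted members were below 0 (85.5%, against 59.1% of all rows), with a median of -0.30 beside -0.13 for all rows. With the cells in Cy5, 48 of 56 were below 0 (85.7%, against 53.1% of the same rows and 54.3% of all 8629 rows fitted in Cy5), with a median of -0.61 beside -0.06. Within either orientation alone, with 3 arrays a group, limma called 0 members, and 7 members in Cy3 and 13 in Cy5 had an unadjusted p under 0.05. Of all rows, 0.0254% were called lower and 0% higher in Cy3, 4.52% lower and 2.38% higher in Cy5, and an unadjusted p under 0.05 was reached by 13.8% in Cy3 and 24.4% in Cy5. The interaction of group and dye passed for 0 members (limma, adjusted) and had an unadjusted p under 0.05 for 3, beside 0.416% and 15.7% of all rows.

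The balancer TM3 of the wildtype group is a version of chromosome 3, and 3 of the 4 genes called lie on that chromosome. Of the 20 tested core subunits on chromosome 3, 3 were lower (15%, against 3.72% of all rows on that chromosome), with a median difference of -0.59 beside -0.13 for those rows. Of the 31 on other chromosomes 1 was lower (3.23%, against 3.1% of rows there), with a median of -0.42 beside -0.12. The wildtype samples carried the balancer and the mutant samples did not. Its effect and that of the mutation therefore cannot be told apart, for genes on any chromosome. COX7C on arm 2R was the one call elsewhere, and it shares this limit.

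The core subunits varied together from array to array. Over the 49 with all 12 ratios, and with group means removed, the median Pearson correlation between pairs of genes was 0.72 within complex IV, 0.61 within complex V, 0.48 within complex III, 0.40 within complex I and 0.34 within complex II. Between complexes it was 0.42, and with all other rows it was -0.02. With dye means removed as well it was 0.72 within complex IV, 0.41 within complex V, 0.48 within complex I, 0.44 within complex III and 0.28 within complex II. These correlations are a description over 12 arrays whose genes share labelling, depth and array, and the pairs are not independent. The genes most and least like the rest depended on this choice. With group means removed, ND-B22, an accessory subunit of complex I, had the highest median correlation with the other core subunits (0.71), and RFeSP (-0.33) and ATPsynO (-0.21) had the lowest. With dye means removed as well, ATPsynE and COX7A had the highest (0.71 each), ND-B22 had 0.60, RFeSP had 0.16, and ATPsynO (-0.23) and ATPsynbeta (-0.22) had the lowest.

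Subunits that the annotation names by other symbols had differences in the same direction. All 5 of levy, cype, blw, sun and ox were below 0, with a median of -0.68, and 1 was lower past the threshold. Of all rows 59.3% were below 0 and 3.37% were called lower, with a median of -0.13. That gene, cype, encodes the COX6C subunit of complex IV and averaged -1.07 ± 0.43 in the mutant and -0.12 ± 0.38 in wildtype (SD, n = 6 each), a difference of -0.95 (SE 0.23, limma adjusted p = 0.0385). The complex IV gene levy, a COX6A homologue, had a difference of -0.82 (SE 0.25, limma adjusted p = 0.0691). The complex III gene ox had -0.68 (SE 0.23), and the complex V genes sun and blw, for the epsilon and alpha subunits, had -0.59 (SE 0.58) and -0.43 (SE 0.30).

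Lists of other energy and mitochondrial genes are given for comparison by their counts and medians. Assembly factors had a median of -0.01 with 0 of 6 past the threshold, mitochondrial carriers and pores 0.11 with 0 of 4, and genes of mitochondrial DNA and biogenesis 0.06 with 0 of 7. Of 5 genes of mitochondrial dynamics and quality, 1 was higher, milt, which encodes the adaptor that links mitochondria to kinesin. It averaged 0.68 ± 0.24 in the mutant and -0.32 ± 0.54 in wildtype (SD, n = 6 each), a difference of 1.0 (SE 0.23, limma adjusted p = 0.0311), and the median of the list was -0.13. Glycolysis genes had a median of -0.64 with 0 of 8 past the threshold and members on both sides. Gapdh1, a glyceraldehyde-3-phosphate dehydrogenase, had a difference of -1.45 (SE 0.40, limma adjusted p = 0.0583), and Hex-A, a hexokinase, had 1.43 (limma adjusted p = 0.0677). Differences between these lists and the subunits were not tested.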

How the data were processed

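The deposited values were log2 ratios of 14569 probes on 12 arrays of 2 colours. Base, direction and centring are not stated in the labels, and no source used here gives the scanner software or the normalization. Base 2 and the direction cells over reference are taken as likely, and each deposited column had a median of 0. Exact zeros (22.1% to 38.6% of probes per array) and values beyond 11 in size were set to missing. Genes were named from the platform annotation, in which 12657 probes had 1 symbol, 96 several and 1816 none. All 72 members were found in the RefSeq gene table for Drosophila, and 3 member probes with several symbols were left out. Probes of a gene were averaged. Rows with at least 4 ratios per group entered a linear model with terms for group and dye (R 4.3.3, limma 3.58.1, lmFit then eBayes), and Benjamini-Hochberg adjustment ran over all 8165 rows. The procedure was tested on simulated data, in which 100 rows were changed by 1 and 100 by 2 on the log2 scale. It recovered 15% of the former and 66% of the latter, so a member that did not pass may still differ. The simulated noise was independent between rows and all other rows were unchanged. In the data 25.9% of rows had an unadjusted limma p under 0.05 and genes varied together, so these rates are only a guide. Values are given for members past the threshold and, in each complex, for the 2 of smallest p and those of highest and lowest mean ratio; RFeSP, COX4L and the other members with values were named after their values were seen. The members and lists were chosen with earlier results of these data known. Alternatives covered the dye term, dye orientation, replicate block, scaling, missing values, row filter, probe summary, moderation and each array left out.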

Additional observations from a re-analysis of the deposited data

How the results depend on the processing

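The members' median difference of -0.48 kept its sign under all 26 alternatives, between -0.63 and -0.25, and lay between 0.17 and 0.54 below the median of all rows. The count of 4 members past the threshold was less stable. It was 0 without the dye term, 0 in Cy3 arrays only and 0 in Cy5 arrays only, where an unadjusted limma p under 0.05 was reached by 21, 7 and 13 members, against 30 in the fit reported. With the replicate number as a block (replicate block) it was 0, with limma adjusted p of 0.057 to 0.074 for the 4 genes and 23 members at an unadjusted p under 0.05. Over all rows 404 were called in the fit reported, 187 without the dye term and 106 with the replicate block. Cy3 arrays only gave 2 and Cy5 arrays only 595. Nothing in the labels pairs the samples by number. All same-numbered arrays correlated above 0, at 0.064 to 0.285 after group means were removed. With dye means removed as well the values were 0.062 to 0.262. There, 5 of 12 samples were closest to their own number among the 6 arrays of the other group. Same-numbered arrays may thus share some variation, which was not tested. The fit reported took no pairs because no label gives them. The count was 2 with each array centred, 1 with quantile normalization and 1 where exact zeros and one-channel values were kept. Leaving out each array in turn gave 0 to 6; where it was 0, an unadjusted p under 0.05 was reached by 16 to 28 members. The 6 without wildtype replicate 1 added ATPsynB and ATPsynCF6, the 3 without wildtype replicate 4 included COX4L as higher, and the 3 without mutant replicate 5 included ND-ASHI. With the subunits of other symbols, added after seeing the data, it was 5. COX7C passed in 14 of 24 alternatives, ATPsynE in 12 of 25, Cyt-c1 in 9 of 25 and ND-39 in 8 of 25, each with the same direction throughout. The 24 of COX7C leave out the fit with each probe as its own row, in which neither of its probes passed. ND-B12 turned to -0.13 in Cy3 arrays only and ran from -0.12 to 0.12 with single arrays left out, and ATPsynB turned to 1.45 with zeros and one-channel values kept, where its second probe, which has no ratio, enters. The cause was not tested for the others. Signal over background is unknown, which limits low ratios such as those of UQCR-14L.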
